A study of Mus musculus with 4 samples.

Results

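Macrophages take up, bind, store, digest and export lipid with a small set of proteins, and 10 of their genes are described here: Lpl, Cd36, Fabp5, Plin2, Lipa, Gpnmb, Trem2, Abca1, Abcg1 and Apoe. They were found by symbol in the feature lists of all 4 deposited matrices, which hold 32285 genes each, and every one of the 10 was present in all of them. The genes were proposed with earlier results of these data in view, so their levels in cell classes are given as a description, and the fits below, which run over all genes, are not independent evidence for choosing them.

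The libraries are droplet single-cell RNA libraries (10x Genomics) of MC38b tumours in mice; MC38 is a mouse colon carcinoma line. One library, called combination here, came from mice given an antibody against PD-1 together with one against TL1A (labelled antiPD1TL1A), 1 came from mice given anti-PD-1 alone, and 2 came from mice given saline (PBS 1 and PBS 2). Activated T cells carry PD-1, a receptor that restrains them, while TL1A belongs to the TNF cytokines, and the series title asks what anti-TL1A adds to anti-PD-1. All mice carried the same kind of tumour and were sampled 24 h after the second of 2 doses, and the sorted gates (CD45+CD3+, CD45+CD3- and CD45-CD3-) were remixed at 9 to 9 to 2 parts, with 20000 cells loaded per condition. The labels state 4 animals for treated and 2 for saline samples, pooled before sorting, and do not say whether each PBS library is 1 animal, nor do they give strain, sex or age. Each treated group is 1 library, so all p-values below measure only the spread between the PBS libraries, which may be technical. They assume that the treated libraries vary as the PBS libraries do. The spread was largely shared over genes, so a small p-value does not show that the PBS values of that gene were close.

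Lipoprotein lipase, the product of Lpl, releases fatty acids from triglyceride carried in lipoproteins, and CD36 is a scavenger receptor that binds oxidised lipoproteins and brings in long-chain fatty acids. Inside the cell FABP5 carries fatty acids, perilipin 2 (Plin2) coats lipid droplets, and lysosomal acid lipase (Lipa) splits the cholesteryl esters and triglycerides that arrive by endocytosis. ABCA1 and ABCG1 pass cholesterol to lipoprotein particles, apolipoprotein E is a main protein of such particles, TREM2 is a lipid-binding receptor that signals through the adaptor TYROBP, and GPNMB is a membrane glycoprotein of lipid-laden macrophages. Macrophages that express many of these genes have been described in tumours and in atherosclerotic plaques.

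The anti-PD-1 library held 13231 barcodes, the combination library 11177, and the PBS libraries 6732 and 6448. Median UMIs per barcode (unique molecular identifiers, the counted RNA molecules) were 3588 for anti-PD-1 and 7098 for the combination, against 7798 and 7645.5 in PBS 1 and PBS 2, so the anti-PD-1 library was the shallowest per cell. The anti-PD-1 library shared 1243 cell barcodes with PBS 1 and 1774 with PBS 2, the PBS libraries shared 673 with each other, and the combination library shared 19 to 39 with any other. Where a shared barcode had at least 5 times as many UMIs in one library as in another, the shallow copy was left out, which removed 1867 barcodes from the anti-PD-1 library, 3 from the combination library, and 160 and 471 from PBS 1 and PBS 2. After these steps and the removal of doublets, 10048 anti-PD-1, 9953 combination, 6084 PBS 1 and 5540 PBS 2 cells were kept.

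Cells were grouped by clustering with the 10 genes left out, and clusters were named from markers. C1q macrophages were clusters high in C1qa and low in Ly6c2, monocytes were high in Ly6c2 and low in C1qa, intermediates held both, and cycling C1q macrophages also held Mki67. C1qa, a subunit of complement C1q, stood at 5526 and 4181 CPM (the UMIs of a gene as counts per fixed class total, not corrected for gene length) in C1q macrophages of the anti-PD-1 and combination libraries, against 3984 and 3563 CPM in PBS, and at 139 and 62.6 CPM in their monocytes, against 103 and 83.9 CPM in PBS. Ly6c2, a surface protein gene of inflammatory monocytes, stood at 1858 and 1659 CPM in treated monocytes, against 1423 and 1335 CPM in PBS monocytes, and at 54.9 and 35.2 CPM in treated C1q macrophages, against 43.5 and 39.6 CPM in PBS. Neutrophils held S100a8 at 18629 to 23916 CPM, and Mrc1, a macrophage mannose receptor gene that the naming did not use, had no UMI in them. The levels of C1qa, Ly6c2 and S100a8 were fixed by the naming and are no check of it. C1q macrophages numbered 193 and 218 cells in the anti-PD-1 and combination libraries, against 279 and 194 in PBS 1 and PBS 2, and a median cell held 11085 and 15111 UMIs there, against 17697 and 20827. C1q clusters of low depth were kept apart, with 352 and 39 cells in the anti-PD-1 and combination libraries, against 27 and 67 in PBS, so for anti-PD-1 more such barcodes lay outside the class than in it. Macrophage clusters with T cell transcripts were also kept apart, with 36 and 129 cells, against 68 and 84. With the low-depth cells added, Lpl was at -1.63 and -1.66 for anti-PD-1 and the combination over PBS (log2 fold changes, adjusted p = 6.20e-16 and 2.40e-18, edgeR). Monocytes numbered 558 and 473 against 339 and 304, intermediates 241 and 200 against 94 and 105, cycling C1q macrophages 64 and 82 against 81 and 84, and neutrophils 119 and 147 against 99 and 84.

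Markers of other cell types were low in C1q macrophages. The 7 T cell markers summed to 29.7 CPM in the anti-PD-1 library and 34.4 CPM in the combination library, against 29.4 and 34.8 CPM in PBS, and the 4 tumour epithelial markers to 0 and 0.568 CPM, against 0.937 and 0 CPM, with 2 to 4 of the 4 markers at 0 in each library. Neutrophil markers summed to 66.0 and 116 CPM, against 69.7 and 91.3 CPM in PBS, and the 3 adipocyte markers to 0 and 0 CPM, against 0.937 and 0.678 CPM. In both treated libraries the 4 NK cell markers (21.3 and 13.9 CPM, against 6.56 and 7.23 CPM in PBS) and the 4 endothelial markers (57.1 and 62.8 CPM, against 46.8 and 45.7 CPM) summed higher, and the 7 monocyte markers lower (263 and 263 CPM, against 364 and 306 CPM). Mrc1 within the C1q class was lower in both treated libraries, at 370.3 and 431 CPM, against 698 and 673 CPM in PBS. The part of these markers in the results on the lipid genes was not tested.

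The promoters of 3 of the genes are printed because they stand for export (Abca1), lipid sensing (Trem2) and droplet storage (Plin2) and because their windows hold a motif that regulators of lipid and lysosome genes bind. RefSeq windows on GRCm38.p6, from 250 bases before to 50 after a start, were matched for 7 of the 10 genes; Lpl, Fabp5 and Abcg1 had no entry. Capitals mark matches to CACGTG, an E-box bound by basic helix-loop-helix factors such as TFEB, or to AGGTCA, the nuclear receptor half-site, which reads TGACCT where it lies on the other strand. Each sequence runs 5′ to 3′ on the strand of its gene.
Abca1, chr4:53159846-53160145, minus strand: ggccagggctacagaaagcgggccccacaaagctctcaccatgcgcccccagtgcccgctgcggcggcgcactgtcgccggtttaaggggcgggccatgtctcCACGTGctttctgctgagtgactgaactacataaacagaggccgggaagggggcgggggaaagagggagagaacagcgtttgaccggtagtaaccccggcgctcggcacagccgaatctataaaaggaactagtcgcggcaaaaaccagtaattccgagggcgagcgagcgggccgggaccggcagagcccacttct
Trem2, chr17:48346151-48346450, plus strand: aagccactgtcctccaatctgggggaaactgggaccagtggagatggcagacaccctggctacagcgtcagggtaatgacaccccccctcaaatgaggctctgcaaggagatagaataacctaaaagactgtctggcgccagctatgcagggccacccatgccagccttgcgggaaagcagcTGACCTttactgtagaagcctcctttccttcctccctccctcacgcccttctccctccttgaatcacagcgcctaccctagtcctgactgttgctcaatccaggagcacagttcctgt
Plin2, chr4:86670010-86670309, minus strand: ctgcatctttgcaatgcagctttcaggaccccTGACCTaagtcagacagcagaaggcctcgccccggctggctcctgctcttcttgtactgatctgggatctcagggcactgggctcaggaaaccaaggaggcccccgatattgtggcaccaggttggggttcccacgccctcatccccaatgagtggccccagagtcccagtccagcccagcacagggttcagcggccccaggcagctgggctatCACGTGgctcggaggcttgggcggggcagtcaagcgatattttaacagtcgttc
The E-box began at position -147 from the start in Abca1 and at -4 in Plin2, and the half-site at -68 in Trem2 and at -218 in Plin2. A half-site also lay at -228 in the Cd36 window, which is not printed. CACGTG was present in 7.17% and AGGTCA in 16.2% of the 32544 promoters in the table, both strands searched. The core ACGTG, held by 19.7% of promoters, is part of every CACGTG and was met nowhere else in the 7 windows. Exact direct repeats of AGGTCA spaced by 4 bases (DR4) and by 1 base (DR1) were met in 0.0154% and 0.0399% of promoters. They had no match in the 7 windows, and neither did CATGTG (14.2%). Only exact matches were searched, so repeats whose half-sites differ from AGGTCA were not looked for and may be present. TGACTCA (5.19%) was met in the window of Gpnmb only.

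Lpl (ENSMUSG00000015568, chromosome 8, 68880491 to 68907448, plus strand, GRCm38) was lower in C1q macrophages of both treated libraries. Its level was 30.6 CPM in the anti-PD-1 library and 35.0 CPM in the combination library, against 112 and 111 CPM in PBS 1 and PBS 2. Both treated libraries lay below both PBS libraries, which nearly coincided. The log2 fold change was -1.76 ± 0.19 (SE) for anti-PD-1 over PBS (adjusted p = 2.96e-09) and -1.66 ± 0.17 for the combination over PBS (adjusted p = 8.35e-10) in edgeR's quasi-likelihood test with Benjamini-Hochberg adjustment over all 12168 genes tested. These comparisons share the PBS libraries, and all other comparisons with PBS below do too. In such sums fewer cells expressing a gene and less RNA per cell cannot be told apart, so the cells with a UMI were counted as well.

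Few C1q macrophages carried most of the Lpl. Cells with at least 1 Lpl UMI made up 13.0% (25 of 193, exact 95% interval 8.56 to 18.5%) for anti-PD-1 and 16.1% (35 of 218, 11.4 to 21.6%) for the combination, against 29.4% (82 of 279, 24.1 to 35.1%) in PBS 1 and 27.8% (54 of 194, 21.7 to 34.7%) in PBS 2. With every cell thinned to 1000 UMIs, the shares averaged over all draws were 2.36% and 2.40%, against 5.37% and 5.19%. These shares at equal depth were also lower in both treated libraries, but they rest on few cells and are given without an interval. T cells, which should lack the gene, had a UMI in 0.386% and 0.442% of cells, against 0.751% and 0.985% in PBS (their median UMI count was 4391 and 6449 in treated libraries and 6865.5 and 8048 in PBS). The single cell with most Lpl held 16 of 69 UMIs in the anti-PD-1 library and 32 of 123 in the combination library, against 254 of 597 in PBS 1 and 172 of 492 in PBS 2. The 5 cells with most Lpl held 53.6% and 68.3% of the UMIs, against 57.8% and 62.4%. Without the top cell of each library the levels were 23.8 and 26.0 CPM, against 64.7 and 73.0 CPM, and the fold changes were -1.42 ± 0.21 (adjusted p = 3.59e-06) and -1.38 ± 0.18 (adjusted p = 9.88e-07, edgeR). Without the top 5 cells they were -1.54 ± 0.25 (adjusted p = 0.0103) and -1.99 ± 0.24 (adjusted p = 0.00245, edgeR). These 5 were a larger part of the cells with Lpl in the treated libraries (of 25 and 35) than in PBS (of 82 and 54). The cut was thus unequal, and whether few cells carried the difference was not tested. Both calls were lost when the shallow copies of shared barcodes were kept, at -1.63 (adjusted p = 0.148) and -1.34 (adjusted p = 0.266).

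**Figure D1:**
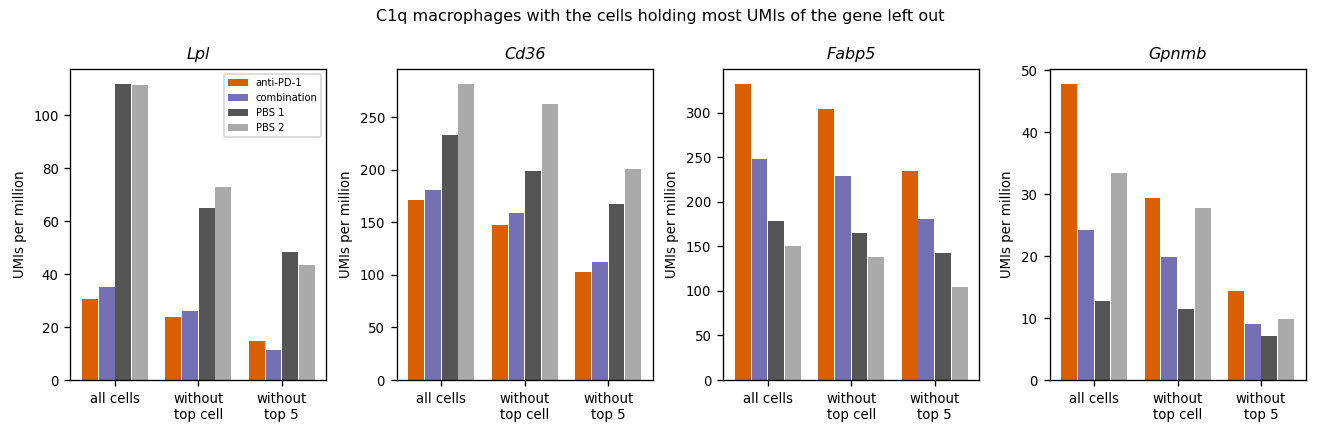
Bars give the level (CPM) of Lpl, Cd36, Fabp5 and Gpnmb in C1q macrophages of each library, with all cells, without the single cell and without the 5 cells holding most UMIs of the gene. Bars stand in the order anti-PD-1, combination, PBS 1 and PBS 2, and Lpl without the top cell was 23.8 and 26.0 CPM in treated libraries, against 64.7 and 73.0 CPM in PBS.

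Lpl also differed in the cycling C1q macrophages, at 25.3 CPM in the anti-PD-1 library and 18.9 CPM in the combination library, against 50.8 and 40.1 CPM in PBS. The fold change was -1.29 ± 0.27 for the combination (adjusted p = 0.0124) and -0.73 ± 0.32 for anti-PD-1 (adjusted p = 0.27), both over PBS in edgeR. The combination call was lost with DESeq2 (adjusted p = 0.821) and kept in the other 8 alternatives tested. Monocytes had 22.8 and 24.3 CPM, against 33.2 and 43.1 CPM, again lower in both treated libraries, with fold changes of -0.67 ± 0.25 (adjusted p = 0.185) and -0.63 ± 0.24 (adjusted p = 0.284) that did not pass. Intermediates had 14.8 and 7.76 CPM, against 15.5 and 2.88 CPM, and these ranges overlapped. Neutrophils had 1 Lpl UMI in the anti-PD-1 library and none in the combination library, against none in PBS 1 and 1 in PBS 2. Whether the change differed between classes was not tested. Over the 4 libraries the median level was 73.1 CPM in C1q macrophages, 32.7 in cycling C1q macrophages, 28.8 in monocytes and 11.3 in intermediates. The first 3 ranges overlapped from one to the next, and all 4 intermediate values (2.88 to 15.5 CPM) lay below all monocyte values (22.8 to 43.1 CPM).

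Cd36 (ENSMUSG00000002944, chromosome 5, 17781690 to 17888801, minus strand) was likewise lower in C1q macrophages of both treated libraries, by a smaller amount. It stood at 171 CPM in the anti-PD-1 library and 180.5 CPM in the combination library, against 233 and 282 CPM in PBS. The groups did not overlap. The fold changes were -0.48 ± 0.14 (adjusted p = 0.0343) and -0.49 ± 0.14 (adjusted p = 0.0366) in edgeR. The calls were fragile: without the 5 cells with most Cd36 per library the adjusted p values were 0.062 and 0.104, and with macrophage clusters that also held T cell transcripts added the anti-PD-1 value was -0.27 (adjusted p = 0.278). In monocytes Cd36 stood at 29.5 and 46.8 CPM, against 36.5 and 62.7 CPM, and in intermediates at 61.2 and 98.8 CPM, against 35.0 and 99.2 CPM, with no call in either class. The class with most Cd36 was none of these. It was a cluster of Ace and Adgre4 expressing monocytes, the pattern of patrolling monocytes in the mouse, at 711 CPM in the anti-PD-1 library and 1013 CPM in the combination library, against 1026 and 1087 CPM in PBS. Its lowest library lay above the highest C1q macrophage library (282 CPM), and in every library it held 17.3 to 28.1 times the level of the Ly6c2-high monocytes. Neutrophils held 5 Cd36 UMIs in the combination library and 0 in the other 3.

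**Figure D2:**
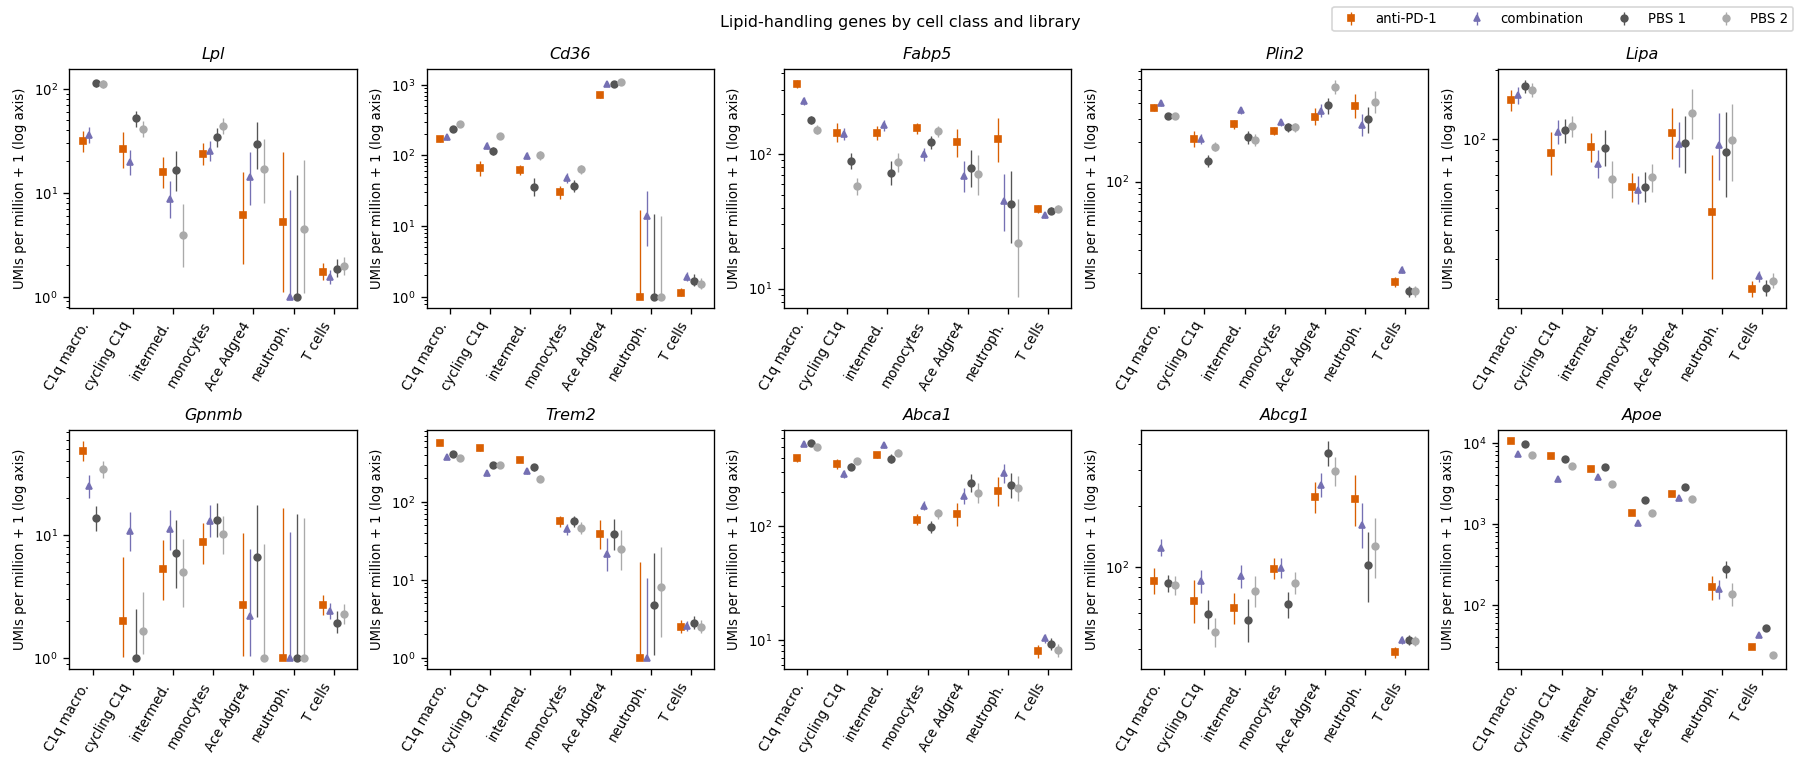
Points give the level of each of the 10 genes (CPM + 1, log axis) in each cell class, 1 per library in the order anti-PD-1, combination, PBS 1 and PBS 2, and lines give the exact Poisson 95% interval, which covers counting error only. Lpl in C1q macrophages lay at 30.6 and 35.0 CPM in treated libraries, against 112 and 111 CPM in PBS, and Cd36 reached its highest levels, 711 to 1087 CPM, in Ace Adgre4 monocytes.

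Fabp5, the fatty acid carrier (ENSMUSG00000027533, chromosome 3, 10012548 to 10016607, plus strand), was higher in C1q macrophages of both treated libraries. It stood at 333 CPM in the anti-PD-1 library and 248 CPM in the combination library, against 179 and 151 CPM in PBS 1 and PBS 2. Both treated libraries lay above both PBS libraries. The fold change was 1.11 ± 0.13 for anti-PD-1 (adjusted p = 1.40e-07) and 0.61 ± 0.13 for the combination (adjusted p = 0.00496) in edgeR. Without the 5 cells with most Fabp5 per library, which held 22.4 to 32.5% of its UMIs, the fold changes were 1.03 (adjusted p = 0.0501) and 0.56 (adjusted p = 0.288). The share of C1q macrophages with a Fabp5 UMI at 1000 UMIs per cell was 17.8% and 13.8%, against 12.0% and 9.67% in PBS, and 2.62% and 2.22% of T cells, against 2.35% and 2.75% in PBS. Fabp5 has near-identical copies, and 22.8% of the 31-base runs at its 3′ end (the final 500 bases) also occur in Gm6166, Gm14328, Gm6100 or Fabp5l2, so its counts are uncertain to the extent that reads were divided among these copies.

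Fabp5 was called against PBS in 1 further class. In intermediates it stood at 143 and 162 CPM, against 71.5 and 85.9 CPM in PBS, with no overlap. The combination passed there (1.04 ± 0.18, adjusted p = 0.0369) and anti-PD-1 did not (0.93 ± 0.18, adjusted p = 0.136, edgeR). In cycling C1q macrophages it stood at 144 and 141 CPM, against 87.8 and 56.5 CPM, and neither fold change passed (1.11 ± 0.27, adjusted p = 0.082, and 0.94 ± 0.24, adjusted p = 0.0806). In neutrophils it stood at 129 CPM in the anti-PD-1 library and 44.0 CPM in the combination library, against 41.4 and 21.0 CPM in PBS, from 30 and 17 UMIs against 11 and 6. The anti-PD-1 fold change there was 2.08 ± 0.55 (adjusted p = 0.0545, edgeR). Monocytes differed from these classes in pattern, at 155 CPM in the anti-PD-1 library and 98.8 CPM in the combination library, against 122 and 148 CPM in PBS. There the combination library was lower than the anti-PD-1 library (-0.70 ± 0.18, adjusted p = 0.014, edgeR), a comparison of 2 libraries and not of the conditions, and neither differed from PBS past the threshold.

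Plin2, which coats lipid droplets (ENSMUSG00000028494, chromosome 4, 86648386 to 86670060, minus strand), stood at 366 and 397 CPM in C1q macrophages of the anti-PD-1 and combination libraries, against 314 and 313 CPM in PBS. The ranges did not overlap, but the fold changes of 0.33 ± 0.14 (adjusted p = 0.184) and 0.36 ± 0.14 (adjusted p = 0.183) did not pass in edgeR. Intermediates had 272 and 348 CPM, against 217 and 206 CPM, also without overlap, and 0.72 ± 0.15 for the combination (adjusted p = 0.103). Monocytes had 242 and 282 CPM, against 257 and 258 CPM, and neutrophils 377 and 269 CPM, against 297 and 405 CPM, so these groups overlapped. The highest Plin2 level was in a small cluster led by Cxcl3 and Cxcl2 that carried S100a8 at 5035 to 9376 CPM and Retnlg, another neutrophil gene, at 27.6 to 288 CPM (1677 to 2648 CPM in neutrophils), and that was kept apart from the neutrophils. It held 2546 and 1397 CPM, against 2862 and 2159.8 CPM in PBS, in 29 and 31 cells, against 34 and 107. In each library that was 5.19 to 9.62 times the level in neutrophils. The cluster was too small in 3 libraries to be tested. Fabp5 stood there at 637 and 248 CPM, against 144 and 236 CPM in PBS.

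Lipa, the lysosomal acid lipase gene (ENSMUSG00000024781, chromosome 19, 34492318 to 34527474, minus strand), varied little among libraries. C1q macrophages had 147 and 155 CPM, against 169.6 and 163 CPM in PBS, with fold changes of -0.08 ± 0.14 and -0.09 ± 0.13 (adjusted p = 0.843 and 0.866, edgeR). Its class order was clear only at the top. C1q macrophages (147 to 169.6 CPM) lay above cycling C1q macrophages (86.1 to 113 CPM) without overlap, and Ace Adgre4 monocytes, neutrophils, intermediates and monocytes followed with medians of 100.3, 89.9, 84.1 and 60.9 CPM, each overlapping its neighbour. Lipa was not called in any class or comparison.

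Gpnmb (ENSMUSG00000029816, chromosome 6, 49036546 to 49070929, plus strand) varied widely between libraries. In C1q macrophages it stood at 47.8 CPM in the anti-PD-1 library and 24.2 CPM in the combination library, against 12.7 and 33.4 CPM in PBS, so PBS 2 lay between the treated libraries. The fold changes were 1.19 ± 1.05 and 0.12 ± 1.09 (adjusted p = 0.748 and 0.987, edgeR), and the top 5 cells of a library held 45.6 to 70.9% of its UMIs. Neutrophils had no Gpnmb UMI in any library, which allows up to 12.9 and 7.77 CPM in the anti-PD-1 and combination libraries, against 11.3 and 10.5 CPM in PBS, taking 3 counts as the limit. The small Cxcl3 and Cxcl2 cluster, kept apart from the neutrophils, held Gpnmb at 17.2 and 368 CPM, against 72.1 and 151 CPM in PBS. In cycling C1q macrophages there were 1 and 25 UMIs in the treated libraries, against 0 and 2 in PBS. The combination was called there (fitted log2 fold change 4.53 ± 0.98, adjusted p = 0.0169, edgeR), and the ratio of its level to the PBS sum was 26.8, with a counting interval of 6.69 to 233.6. The 25 UMIs came from 4 cells, of which 1 held 12. Without PBS 2 the fitted value was 7.26 and without PBS 1 it was 3.75, with no test.

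Trem2 (ENSMUSG00000023992, chromosome 17, 48346401 to 48354147, plus strand), the receptor gene whose promoter is printed above, was higher in C1q macrophages of the anti-PD-1 library. These cells had 571 CPM in the anti-PD-1 library and 369 CPM in the combination library, against 413 and 359.8 CPM in PBS. The combination library lay between the PBS libraries. The fold change was 0.67 ± 0.14 for anti-PD-1 over PBS (adjusted p = 0.00285) and -0.05 ± 0.15 for the combination over PBS (adjusted p = 0.932), and the combination library was lower than the anti-PD-1 library (-0.72 ± 0.17, adjusted p = 0.0187, edgeR). Cycling C1q macrophages, a separate set of cells from the same libraries, had 485 and 229.9 CPM, against 293 and 295 CPM, with 0.83 ± 0.14 (adjusted p = 0.00713) for anti-PD-1, -0.39 ± 0.14 (adjusted p = 0.161) for the combination and -1.22 ± 0.16 (adjusted p = 0.000856) between the treated libraries. Intermediates had 345 and 246 CPM, against 276 and 197 CPM, and monocytes 55.5 and 43.8 CPM, against 55.1 and 45.2 CPM, with no call.

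Unlike Lpl, Trem2 was spread over most C1q macrophages. A UMI was found in 89.6% and 85.8% of them in the treated libraries, against 97.5% and 92.8% in PBS, where cells were deeper. At 1000 UMIs per cell the shares were 39.4% for anti-PD-1 and 27.8% for the combination, against 32.8% and 28.8% in PBS. The anti-PD-1 share was thus below both PBS shares at full depth and above both at equal depth, where the shares are given without an interval. T cells had a UMI in 0.836% and 1.09% of cells, against 1.27% and 1.35%, before thinning. The anti-PD-1 library had the lowest depth in this class, and the part of depth in the result was not tested beyond this thinning and a fit on sums thinned to equal totals, where the call remained. The anti-PD-1 call was kept in 13 of 16 tested alternatives, with adjusted p up to 0.304 over the edgeR and DESeq2 fits. Among the losses was the fit with the 10 genes kept in the clustering (0.60, adjusted p = 0.0583, edgeR). The difference between the treated libraries kept its call in 10 of 16 tested alternatives, with adjusted p up to 0.403 in the cluster led by Mmp12 described below. It was lost with DESeq2 (adjusted p = 0.191) and without the single cell with most Trem2 per library (adjusted p = 0.151), although that cell held 2.56% and 2.08% of the UMIs in the treated libraries. The 5 cells with most Trem2 held 11.2% and 7.70%, against 6.36% and 8.23% in PBS.

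Of the export genes, Abcg1 (ENSMUSG00000024030, chromosome 17, 31057675 to 31117988, plus strand, with the rRNA gene Gm25447 inside it) was higher in C1q macrophages of the combination library. It stood at 85.0 CPM in the anti-PD-1 library and 124 CPM in the combination library, against 82.8 and 80.7 CPM in PBS. The fold change was 0.62 ± 0.14 for the combination (adjusted p = 0.00468) and 0.16 ± 0.15 for anti-PD-1 (adjusted p = 0.653), and set against each other the treated libraries gave 0.46 ± 0.17 (combination over anti-PD-1, adjusted p = 0.177, edgeR), short of the threshold. The combination call was kept in 10 of 15 tested alternatives, with adjusted p up to 0.439 (edgeR). Among the losses were the fits with doublets kept (adjusted p = 0.0581) and with T cell transcript macrophages added (adjusted p = 0.0686). Abcg1 did not follow the C1q macrophages in its class order. Among the monocyte, macrophage and neutrophil classes it was highest in Ace Adgre4 monocytes (220.0 and 253 CPM, against 360.4 and 296 CPM in PBS), then in neutrophils (214 and 160.5 CPM, against 102 and 126 CPM in PBS), and the C1q to monocyte ratio ranged from 0.871 to 1.27 over the 4 libraries.

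Abca1 (ENSMUSG00000015243, chromosome 4, 53030787 to 53159895, minus strand), the partner of Abcg1 in cholesterol export, was not called anywhere. C1q macrophages had 396 and 535 CPM, against 545 and 502 CPM in PBS, with fold changes of -0.30 ± 0.15 (adjusted p = 0.299) and 0.05 ± 0.15 (adjusted p = 0.939, edgeR). Intermediates had 423 and 518 CPM, against 394 and 446 CPM, and their range overlapped that of the C1q macrophages. Monocytes had 113 and 151 CPM, against 98.2 and 129 CPM. C1q macrophages held 3.49 to 5.55 times and intermediates 3.42 to 4.01 times the Abca1 level of monocytes in each library. This was not particular to them. Cycling C1q macrophages (288 to 374 CPM), neutrophils (206 to 292 CPM) and B cells (311 to 337 CPM) also lay above monocytes in every library. Ace Adgre4 monocytes held 1.13 to 2.45 times the level of the Ly6c2-high monocytes.

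Apoe (ENSMUSG00000002985, chromosome 7, 19696109 to 19699188, minus strand), the apolipoprotein gene, stood at 10404 CPM in C1q macrophages of the anti-PD-1 library and 7303 CPM in those of the combination library, against 9681 and 7083 CPM in PBS. The treated and PBS ranges overlapped, and neither fold change passed (0.41 ± 0.27, adjusted p = 0.445, and -0.18 ± 0.27, adjusted p = 0.859, edgeR). In monocytes Apoe stood at 1352 and 1015 CPM, against 1958 and 1356 CPM. The combination was lower there by edgeR (-0.69 ± 0.16, adjusted p = 0.0047), but without PBS 1 the fold change was -0.38, and the call was lost with DESeq2 (adjusted p = 0.833), with doublets kept (adjusted p = 0.142) and with Ace Adgre4 monocytes added (adjusted p = 0.062). In cycling C1q macrophages Apoe stood at 6827 and 3588 CPM, against 6313 and 5108 CPM, and the combination library was lower than the anti-PD-1 library (-1.07 ± 0.27, adjusted p = 0.0401, edgeR). Its class medians over the 4 libraries were 8492 CPM in C1q macrophages, 5711 in cycling C1q macrophages, 4272 in intermediates, 1354 in monocytes and 159 in neutrophils. T cells, which should lack the gene, held 29.2 and 41.9 CPM, against 51.3 and 22.9 CPM in PBS.

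Counted over the 10 genes, all of which passed the filter on low counts in C1q macrophages, 4 were called for anti-PD-1 over PBS (Fabp5 and Trem2 higher, Lpl and Cd36 lower), where 4.99% of all 12168 genes were called, 2.93% higher and 2.05% lower. For the combination over PBS 4 were called (Fabp5 and Abcg1 higher, Lpl and Cd36 lower), where 2.37% of all genes were, 1.47% higher and 0.896% lower, and between the treated libraries 1 was (Trem2), where 1.41% were. In cycling C1q macrophages, 1 (Trem2), 2 (Lpl and Gpnmb) and 2 (Trem2 and Apoe) of 10 were called in the same order of comparisons, where 2.74%, 4.23% and 3.74% of 11479 genes were. In intermediates, 0, 1 (Fabp5) and 0 of 10 were called, where 0.0678%, 0.3% and 0.0581% of 10321 genes were. In monocytes, 0, 1 (Apoe) and 1 (Fabp5) of 10 were called, where 1.21%, 1.24% and 1.51% of 10630 genes were. In neutrophils 6 of the 10 genes passed the filter (not Lpl, Cd36, Gpnmb or Trem2) and none was called by edgeR, where 0.24%, 0.0479% and 0.12% of 4175 genes were. In Ace Adgre4 monocytes 9 of the 10 passed it (not Gpnmb) and none was called, where 0.225%, 0.366% and 0.239% of 7109 genes were. The median log2 fold change of all genes was -0.01 in both comparisons of C1q macrophages with PBS. Since the genes were chosen with results known, these counts are a description.

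**Figure D3:**
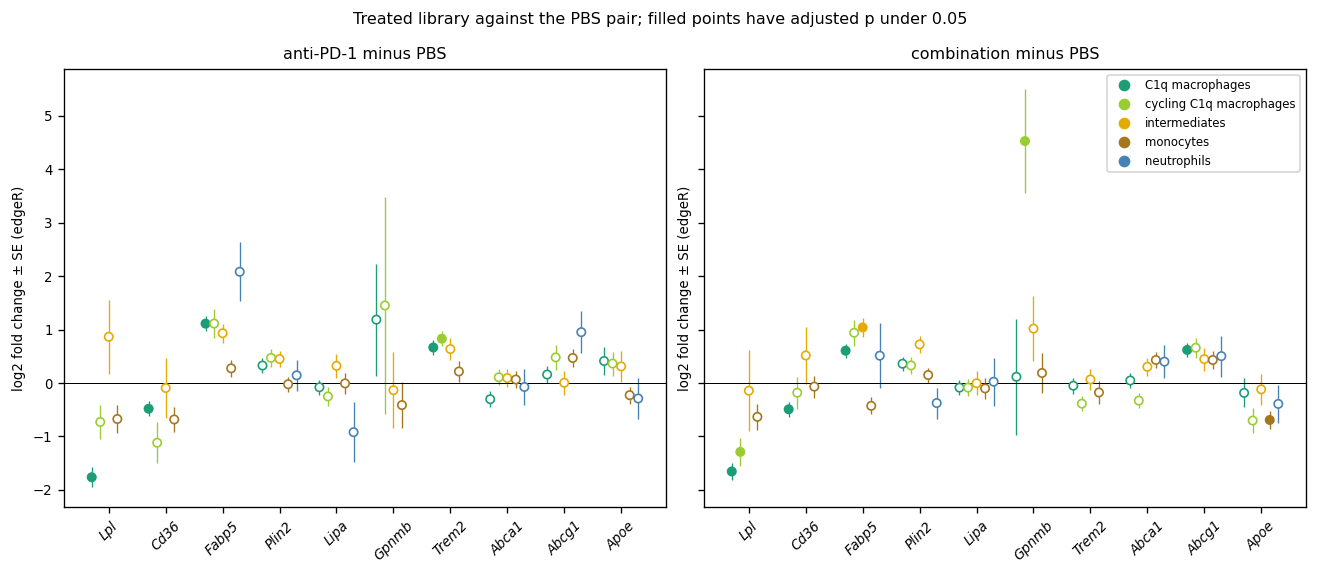
Points give log2 fold changes of the tested lipid genes over PBS by class, lines their standard errors, for anti-PD-1 (left) and the combination (right) in edgeR's quasi-likelihood fits, and filled points passed an adjusted p of 0.05. In C1q macrophages Lpl stood at -1.76 and -1.66 and Fabp5 at 1.11 and 0.61 for anti-PD-1 and the combination over PBS.

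The C1q macrophages divided into 2 clusters at a higher clustering resolution, and most of the genes differed between these. One was led by Mmp12, Arg1 and Hmox1 (a secreted elastase, arginase 1 and haem oxygenase 1) and the other held more Ccl8 and Cxcl9, chemokine genes. The Mmp12 cluster made up 40.7% and 38.6% of the C1q macrophages in the anti-PD-1 and combination libraries, against 49.1% and 47.2% in PBS. Nearly all Gpnmb was in it, at 97.3 and 54.3 CPM there, against 20.9 and 62.4 CPM in PBS, and at 0.660 and 0.436 CPM in the Ccl8 cluster, against 4.04 and 4.38 CPM. In every library Lpl, Cd36, Fabp5, Plin2 and Abca1 were also higher in the Mmp12 cluster, whereas Trem2 was close in both, at 584 and 405 CPM in the Mmp12 cluster, against 417 and 351 CPM in PBS, and at 529 and 317 CPM in the Ccl8 cluster, against 401 and 364 CPM. Clusters are made from expression, so this is a description.

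Within each of these clusters the direction of Lpl and Fabp5 was as in the whole class. Lpl stood at 41.3 and 51.1 CPM in treated Mmp12 macrophages, against 162 and 182 CPM in PBS, and at 16.5 and 26.2 CPM in treated Ccl8 macrophages, against 62.1 and 43.8 CPM. The groups did not overlap in either cluster. Fabp5 stood at 461 and 403 CPM in treated Mmp12 macrophages, against 237 and 245 CPM, and at 189.5 and 113 CPM in treated Ccl8 macrophages, against 116 and 56.9 CPM, where the combination library lay below PBS 1. Cd36 was not called for anti-PD-1 in either cluster alone (adjusted p = 0.241 and 0.335 in the Mmp12 and Ccl8 clusters), nor for the combination in the Mmp12 cluster (adjusted p = 0.775), and it was for the combination in the Ccl8 cluster (-0.81, adjusted p = 0.00132, edgeR). Abcg1 in the combination library was 143 CPM in the Ccl8 cluster, against 87.5 and 76.6 CPM in PBS, and 106 CPM in the Mmp12 cluster, against 80.1 and 79.5 CPM.

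**Figure D4:**
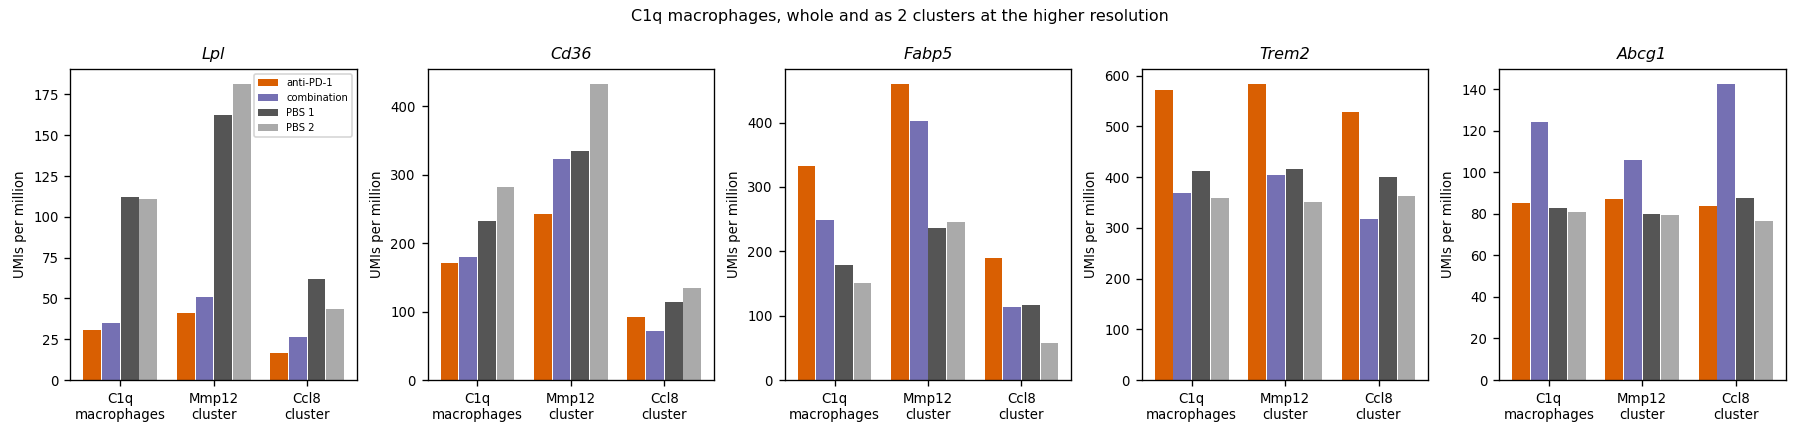
Bars give the level (CPM) of Lpl, Cd36, Fabp5, Trem2 and Abcg1 in C1q macrophages as a whole and in the clusters led by Mmp12 and by Ccl8, by library in the order anti-PD-1, combination, PBS 1 and PBS 2. Lpl lay lower in treated than in PBS libraries in the whole class and in both clusters, while Abcg1 in the Ccl8 cluster stood at 143 CPM in the combination library, against 87.5 and 76.6 CPM in PBS.

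For each gene the 3 others with the most similar pattern were taken by Pearson's r of log2(CPM + 1) over 44 sums, those of 11 classes in 4 libraries, which share libraries and depth. Apoe was nearest to Adgre1 (0.933), the F4/80 gene of macrophages, then Lgmn and Apobec1. Lpl was nearest to Siglec1 (0.902), a macrophage sialic acid receptor gene, then Msr1 and Ctsa, and Trem2 to Pdlim4 (0.962), Siglec1 and Slc7a2. Cd36 was nearest to Dram2 (0.913), Lgmn and Pld4, Gpnmb to Plec (0.806), Dennd2a and Sdc1, and Fabp5 to Lgals3 (0.9), Rnpep and Ctsb. Lipa was nearest to Fgd4 (0.933), Wdfy3 and Sec14l1, and Plin2 to Rab32 (0.963), Fgd4 and Fnip2. Abca1 was nearest to Arhgap24 (0.924) and Dok3 and then to Apoe (0.887), the sole pair among the 10, and Abcg1 to Tfeb (0.949), Arhgap25 and Stap1.

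The other genes of lipid handling were read from 8 lists with the 10 genes left out. The list that stood lowest was cholesterol synthesis, with a median log2 fold change in C1q macrophages of -0.41 for anti-PD-1 and -0.47 for the combination over PBS, where the median of all genes was -0.01. Of its 20 genes 3 fell and none rose in each comparison, where 2.05% (anti-PD-1) and 0.896% (combination) of all genes fell and 2.93% and 1.47% rose. The lists were made with earlier results known, so these counts are a description. Alternative fits were read for the 10 genes and for counts of all genes called, so no list gene was checked in them. Idi1, which makes the isoprenoid isomer used in sterol synthesis, stood at 3.99 CPM in the anti-PD-1 library and 11.7 CPM in the combination library, against 17.8 and 18.5 CPM in PBS (-2.08 ± 0.41 for anti-PD-1, adjusted p = 0.00108). Cyp51, the lanosterol demethylase gene, stood at 19.9 and 15.3 CPM, against 36.4 and 37.1 CPM (-0.78 ± 0.24, adjusted p = 0.0421, and -1.24 ± 0.22, adjusted p = 0.000361). Stard4, a sterol carrier gene, stood at 3.99 and 5.68 CPM, against 14.6 and 14.0 CPM (-1.74 ± 0.45, adjusted p = 0.0131, and -1.31 ± 0.37, adjusted p = 0.0379). The anti-PD-1 levels of Idi1 and Stard4 came from low counts, in the library with the smallest total for this class (2257514 UMIs). Fdps, farnesyl diphosphate synthase, was called for the combination alone, at 17.6 CPM, against 32.2 and 32.5 CPM in PBS (-0.86 ± 0.22, adjusted p = 0.0192), with 32.8 CPM in the anti-PD-1 library. In monocytes the medians of this list were -0.27 and -0.44. By edgeR 0 of 18 tested genes were called in either comparison, where 1.21% and 1.24% of all genes were.

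Of the genes of LXR and cholesterol efflux, 4 of 14 tested rose under anti-PD-1 and none fell, where 2.93% of all genes rose and 2.05% fell. They were Nr1h3, which encodes LXR-alpha (35.4 CPM in the anti-PD-1 library, against 19.1 and 21.2 CPM in PBS; 0.92 ± 0.23, adjusted p = 0.00892), Npc2 (0.65), Pltp (0.60) and Apoc2 (0.56). In the combination library 1 rose, Ch25h, the cholesterol 25-hydroxylase gene, at 83.0 CPM, against 29.8 and 44.1 CPM in PBS (1.20 ± 0.18, adjusted p = 8.31e-05), with 23.0 CPM in the anti-PD-1 library. The medians of this list were 0.13 and 0.15. Of fatty acid binding and lipid droplet genes, Hilpda, a droplet protein gene that inhibits lipolysis, rose in both, at 87.3 and 96.3 CPM, against 48.2 and 64.0 CPM (0.75 ± 0.17, adjusted p = 0.0039, and 0.81 ± 0.15, adjusted p = 0.00103). Slc27a1 rose (0.67) and Acsl4 fell (-0.67) under anti-PD-1, out of 13 tested. Fabp4 rose in the combination library from low counts, at 6.25 CPM, against 1.31 and 1.13 CPM in PBS (2.33 ± 0.68, adjusted p = 0.0481, edgeR). Over all genes 2.93% rose and 2.05% fell under anti-PD-1, and 1.47% rose and 0.896% fell in the combination library.

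Of the 15 tested genes of TREM2 signalling and its associated genes, 3 rose under anti-PD-1, where 2.93% of all genes did, which were Lgals3 (galectin 3; 1.03 ± 0.18, adjusted p = 0.000231), Tyrobp, the adaptor of TREM2 (0.63 ± 0.19, adjusted p = 0.0363), and Cd63 (0.56 ± 0.16, adjusted p = 0.022), although the list's median was -0.13. None of them was called for the combination over PBS, where the median was 0.11. The combination library was higher than the anti-PD-1 library in Igf1 (1.29) and Cd9 (0.66), where 0.731% of all genes were higher. Tyrobp stood at 2281 and 1736 CPM, against 1661 and 1504 CPM in PBS, an order like that of Trem2 in having its highest value in the anti-PD-1 library. Of 23 lysosome genes, Ctsz and Ctsd rose under anti-PD-1 (0.58 and 0.57), where 2.93% of all genes did. Ctsl rose in the combination library (0.53), where 1.47% of all genes did. Of 10 scavenger and efferocytosis receptor genes, Cd68 rose (0.57) and Mertk fell (-0.63 ± 0.14, adjusted p = 0.00392, edgeR) under anti-PD-1. There 2.93% of all genes rose and 2.05% fell. None of the 10 was called for the combination, where 2.37% of all genes were. None of 9 PPAR genes or 14 fatty acid oxidation genes was called against PBS in C1q macrophages by edgeR, with medians between -0.04 and 0.17. Over all genes 4.99% (anti-PD-1) and 2.37% (combination) were called, so no call among so few genes carries little weight. In monocytes Msr1 (-0.51), Lgmn (-0.59) and Adam10 (-0.58) fell under anti-PD-1 and Axl (-0.76) fell in the combination library. No other gene of the 8 lists was called against PBS there. Over all genes in monocytes, 0.536% fell and 0.677% rose under anti-PD-1, and 0.235% fell and 1.01% rose in the combination library.

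**Figure D5:**
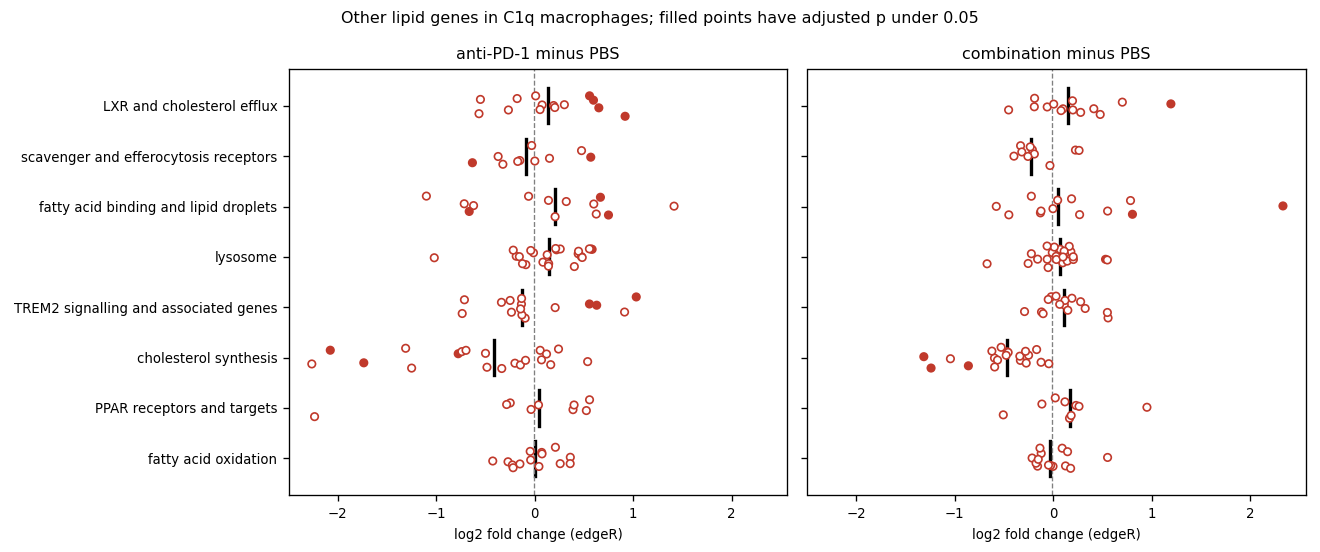
Each point is the log2 fold change of 1 gene of a lipid list in C1q macrophages, for anti-PD-1 over PBS (left) and the combination over PBS (right), with filled points past an adjusted p of 0.05, the black bar at the list's median and the dashed line at the median of all genes. Cholesterol synthesis had medians of -0.41 and -0.47, and LXR and cholesterol efflux had medians of 0.13 and 0.15.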

How the data were processed

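Each deposited matrix gives whole-number UMI counts, unnormalized, for called cells only. The sources differ on the software: per the file headers Cell Ranger 7.1.0 wrote the matrices, and per the submitters' processing notes it was Cell Ranger 3.0.2 with mm10. Intron counting is not given in the labels, headers or notes at hand. The 10 genes and the gene lists were chosen with earlier results of these data known.

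A barcode was kept if it held 200 genes or more and if mitochondrial UMIs were below 15%. Shallow copies of shared barcodes were removed where another library held at least 5 times the UMIs. The highest Scrublet scores were removed at 0.8% per 1000 barcodes (scanpy 1.11.5, Python 3.11.15). Cells were clustered with Leiden (igraph 0.11.9, 2000 variable genes without the 10 genes, seed 1), first on 30 components at resolution 1 and, within immune cells other than T cells, on 20 components at resolution 1.5, or 2.5 for the higher resolution, with graphs of 20 neighbours. Thresholds for naming clusters by their markers were chosen with the data in view.

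Summed UMIs of each class in each library entered edgeR 4.0.16 under R 4.3.3 (TMM, filterByExpr with a minimum of 10, glmQLFit with robust estimation, group as the sole factor, all 4 libraries together), with Benjamini-Hochberg adjustment over all genes of a class and comparison and 0.05 as the threshold. The PBS pair gives 1 residual degree of freedom, and limma 3.58.1 was loaded with edgeR. The spread was drawn toward a value shared over genes. The median prior degrees of freedom were 50.9 in C1q macrophages, 12.8 in cycling C1q macrophages and 10.3 in intermediates. They were infinite in monocytes, neutrophils and Ace Adgre4 monocytes, where for most genes the shared value alone set the spread. CPM values are per class total without TMM, and errors are standard errors derived from the F statistic. The fitted steps were also run on simulated counts with a common spread for all genes and libraries. That run cannot show whether the treated libraries vary as the PBS libraries do. Class totals ranged from 233363 UMIs (anti-PD-1 neutrophils) to 5336770 UMIs (PBS 1 C1q macrophages) over the 5 classes tested. Shares carry exact Clopper-Pearson 95% intervals (scipy 1.17.1), which, like the limits from 3 counts, cover counting error only. Thinned shares are means over all draws and are printed without intervals.

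All 10 genes are named. Of each list, the up to 4 genes with the largest absolute fold change among those past the threshold in C1q macrophages or monocytes are named, and for each gene the 3 with the highest correlation, among genes reaching 10 CPM in at least 4 sums. Alternatives were DESeq2 1.42.0, its size factors, no filter, thinned sums, doublets kept, the 10 genes kept in the clustering, a higher resolution, other class limits and each PBS library left out. Those added after seeing the data kept shallow copies, added or isolated single clusters, and left out the 1 or 5 cells with most UMIs of a gene. Positions are from GENCODE M21 on GRCm38 and promoters from RefSeq on GRCm38.p6. A list member, Clec7a, was not analysed here.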

Additional observations from a re-analysis of the deposited data

How the results depend on the processing

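Of 138 fits of a lipid gene in the 5 classes, 17 were called. The share called over all genes ran from 0.0479% (neutrophils, combination over PBS) to 4.99% (C1q macrophages, anti-PD-1 over PBS). The comparisons share libraries and the genes were chosen with results known, so the count of 17 is a description. The fold changes of called genes kept their sign under every alternative that gave an adjusted p. They also kept it with each PBS library left out in turn, which gave values without a test. Lpl in C1q macrophages stayed between -1.97 and -1.31 for anti-PD-1 and between -1.99 and -1.05 for the combination. It kept its call in 14 of 15 tested alternatives each, and DESeq2, which gave no adjusted p for Lpl there, is not among these. Trem2 in C1q macrophages kept its anti-PD-1 call in 13 of 16 and Fabp5 in 13 of 15, whereas Cd36 kept 10 of 15 and 8 of 16, Fabp5 in the combination 10 of 16 and Abcg1 10 of 15. DESeq2 gave an adjusted p for 9 of the 17 and kept 4. Among values not called in the main fits, 1 changed sign and was called in the alternative. This was Apoe in neutrophils for anti-PD-1, at 0.89 with doublets kept, against -0.29. Sign changes of values called in neither fit were not counted. The share of C1q macrophages with an Lpl UMI, with cells thinned to 2000 UMIs, was 4.37% and 4.08% for anti-PD-1 and the combination, against 8.93% and 8.38% in PBS 1 and PBS 2, lower in both treated libraries as at 1000 UMIs. No paired analysis was possible because each treated group has 1 library, so the groups share fewer than 2 replicate numbers.

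Counts of all genes called moved by more than 1.5 times as follows, in the order anti-PD-1 over PBS, combination over PBS and combination over anti-PD-1 unless a comparison is named, and the cause was not tested. The main counts were 129, 132 and 160 in monocytes, 7, 31 and 6 in intermediates, 607, 288 and 171 in C1q macrophages, 314, 485 and 429 in cycling C1q macrophages and 10, 2 and 5 in neutrophils. DESeq2 gave 22, 13 and 39 in monocytes, 91, 38 and 20 in C1q macrophages, 52, 54 and 75 in cycling C1q macrophages and 0, 0 and 0 in neutrophils, where edgeR had 305, 200 and 190 at an unadjusted p under 0.05. Without the filter there were 78 in monocytes (anti-PD-1 over PBS), 56, 138 and 51 in intermediates, 584, 774 and 699 in cycling C1q macrophages and 2, 1 and 2 in neutrophils. With doublets kept there were 67 in monocytes (combination over PBS), 120, 164 and 105 in intermediates, 371, 133 and 50 in C1q macrophages and 66, 131 and 49 in neutrophils, and no cycling class formed. With shallow copies kept there were 84 and 55 in monocytes over PBS, 240, 332 and 187 in intermediates, 76 in C1q macrophages (combination over anti-PD-1), 31, 320 and 229 in cycling C1q macrophages and 26 and 7 in neutrophils over PBS. DESeq2's size factors gave 21, 61 and 10 in intermediates and 17 in neutrophils (anti-PD-1 over PBS). The higher resolution gave 127, 176 and 130 in intermediates, 81 in C1q macrophages (combination over anti-PD-1), 47 in cycling C1q macrophages (anti-PD-1 over PBS) and 21, 10 and 8 in neutrophils. Thinned sums gave 88, 128 and 65 in intermediates, 562 in cycling C1q macrophages and 16 in neutrophils (both anti-PD-1 over PBS). With the 10 genes kept in the clustering there were 117, 245 and 125 in intermediates and 225, 68 and 14 in C1q macrophages. C1q macrophages gave 1236, 886 and 1002 with the cycling cells added, 122, 82 and 7 as 1 class with monocytes and intermediates, 1113 (anti-PD-1 over PBS) and 492 (combination over anti-PD-1) with low-UMI cells added, 512 (combination over anti-PD-1) with T cell transcript macrophages added, and 55, 54 and 10 in the Mmp12 cluster alone. Neutrophils with the Cxcl3 Cxcl2 cluster added gave 0, 1 and 8. In neutrophils 4 of the 10 genes had too few UMIs to be tested.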

Other observations

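Outside the monocytes, macrophages and neutrophils, Fabp5 reached its highest level in Ccr7-expressing mature dendritic cells, a class of 56 and 53 cells in the anti-PD-1 and combination libraries, against 37 and 46 in PBS. It stood there at 1957 and 1167 CPM, against 1666 and 1186 CPM in PBS, while Trem2 and Gpnmb had no UMI in that class in any library. CD45-negative cells, which hold tumour and stroma, had Gpnmb at 29.1 and 27.3 CPM, against 21.4 and 26.5 CPM in PBS, within the range of C1q macrophages (12.7 to 47.8 CPM), and Lpl at 0.146 and 0.187 CPM, against 0.153 and 0.435 CPM. B cells held Abcg1 at 223 and 186 CPM, against 185 and 220 CPM in PBS, above every C1q macrophage library (80.7 to 124 CPM). These classes entered no comparison.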
